A study of Mus musculus with 6 samples.

Results

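The 10 genes described here mark scar-associated macrophages or encode lysosomal proteins of such cells: Trem2, Tyrobp, Gpnmb, Cd9, Cd68, Lgals3, Lpl, Ctsd, Ctss and Ctsk. They were named as a set with earlier results of these data known, so their directions are not independent of that choice. The set was chosen without use of a measured threshold, from the 52323 genes of the count table. Of these, 19135 genes had enough counts to be tested, and all 10 were among them. RNA was sequenced from damaged hepatocytes (dHeps) taken from livers injured with carbon tetrachloride (CCl4) and then cultured. All 6 libraries came from AAV-TBG-Cre:Rosa-LSL-tdTomato mice, in which a virus carries Cre under the hepatocyte promoter TBG and leaves a red label in hepatocytes. The study used a C57BL/6 background, and the labels give no age. Each library was taken on day 16 of culture in serum-free maintenance medium, and the groups differed in what was added. DMSO, the solvent, was the control. The 3C medium held GSK429286A at 2 µM with inhibitors of protein kinase D (CID755673, 50 µM) and of ATP citrate lyase (ETC-1002, 5 µM). The 5C medium had these at the same doses and, in addition, salidroside at 5 µM and forskolin, which raises cyclic AMP, at 2 µM. There were 2 libraries per group, and the labels did not tell whether these came from different animals, so p-values measure the spread between these libraries only, which may be technical. The methods describe a filtered suspension from a collagenase and pronase perfusion of the liver, and name no sort for hepatocytes before these cultures. The study describes this isolation as enriching hepatocyte-derived cells, since most cells freshly taken from such labelled mice carried the red label. The share of labelled cells in the sequenced cultures was not analysed here.

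Scar-associated macrophages gather in the fibrous bands of injured liver and resemble the lipid-associated macrophages of fat tissue. Their receptor TREM2 binds lipids and cell debris and signals through the adaptor DAP12, the product of Tyrobp. The engulfed material is broken down in lysosomes by proteases called cathepsins, and several of the marker genes encode proteins of this compartment. Cd9, Lgals3 and Lpl are also used by other cells of the liver, among them bile duct cells, fibroblasts and endothelial cells.

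Library totals ran from 65916573 to 69245895 counts, and the largest was 1.05 times the smallest. The cell type named by the labels, hepatocyte, was checked with 10 marker genes. Their summed level was 2199 to 2346 CPM (counts scaled to the library total) in DMSO, 10238 to 10786 CPM in 3C and 10169 to 14765 CPM in 5C, and 9 of the 10 were called higher in each cocktail. Over all tested genes, 7.30% were called higher in 5C and 5.83% in 3C. The remaining marker in each was lower at an adjusted p under 0.05 but not called, with log2 fold changes of -0.85 in 5C and -0.33 in 3C. The albumin gene Alb alone stood at 1357 and 1182 CPM in DMSO, 7402 and 7769 CPM in 3C and 6766 and 10400.2 CPM in 5C. Macrophage transcripts were present beside them. The summed level of 14 pan-macrophage markers was 13048 to 13951 CPM in DMSO, 4539 to 4540 CPM in 3C and 2994 to 3076 CPM in 5C. In DMSO that sum was above the hepatocyte sum, and in both cocktails it was below it. This crossing depends on which genes were listed, and CPM are not scaled for gene length. It does not measure which cell type gave more RNA. In bulk RNA, fewer cells of a type and less RNA per cell cannot be told apart.

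The 10 genes lie on 7 chromosomes of GRCm39, and all are annotated as protein-coding. Trem2 lies on chromosome 17 at 48653429 to 48661175. Ctsk, at 95406178 to 95416732 of chromosome 3, is followed on the same strand by Ctss at 95433963 to 95463717, with a gap of 17230 bases that holds the gene model Gm56808. Ctsd lies on chromosome 7 at 141929646 to 141941775. Of the 50-base words of its longest transcript, 15.8% also occur in transcripts of other genes. The gene with the most such matches was Gm49369, a gene model on the same strand whose counts were 0 in all 6 libraries. The counts of Ctsd are therefore less certain than those of the other members, in which at most 3.80% of words were shared with other genes. Exons of Trem2, Gpnmb, Cd9 and Lpl overlap long noncoding RNAs of the opposite strand over 95 to 433 bases. The sources used here do not state a strand setting, so reads of these genes and of their antisense partners cannot be told apart.

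Promoter sequences were available from RefSeq for 8 of the 10 genes, from 250 bases before to 50 bases after the start. They were drawn from the GRCm38.p6 table, and each matched GRCm39 exactly once. A pair of short motifs was searched on both strands, since 7 of the genes described below were lower together, and myeloid cells and lysosomes have known regulators. GAGGAA is a core that the myeloid factor PU.1 binds, and CACGTG is the E-box at the centre of the CLEAR element, TCACGTGA, read by the lysosomal factor TFEB. GAGGAA was found in 4 of the 8 promoters, those of Trem2, Cd68, Ctsk and Ctss, and in 28.3% of all 32851 promoters. CACGTG was found in 1 of the 8, that of Ctsd, and in 7.15% of all promoters. The longer TCACGTGA, which contains CACGTG, also occurred in the Ctsd promoter and in 0.974% of all promoters. A match of this kind is a description of the letters and not a site shown to be bound. The sequences that hold a motif within the 250 upstream bases are given 5′ to 3′ on the strand of the gene, with the motif or its reverse complement TTCCTC in capitals. For Trem2, the receptor that names the programme, the whole upstream stretch is shown, and for the others a window of 30 bases. Upstream here refers to the RefSeq start, which can lie inside the gene span given above. Both Ctsk windows and the Ctsd window nearer the start lie within the annotated spans of these genes.
Trem2, upstream 250 bases, chr17:48653179-48653428, plus strand: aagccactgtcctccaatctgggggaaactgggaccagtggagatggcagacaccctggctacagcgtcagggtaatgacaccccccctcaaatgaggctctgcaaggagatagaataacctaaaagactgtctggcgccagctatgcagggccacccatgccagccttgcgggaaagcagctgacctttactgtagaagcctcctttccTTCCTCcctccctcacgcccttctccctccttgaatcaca
Cd68, chr11:69557204-69557233, minus strand: tttcttaccaatGAGGAAagggcttcccat
Ctsk, 233 bases upstream, chr3:95406276-95406305, plus strand: gtcagacattttGAGGAAgaatggagacaa
Ctsk, 58 bases upstream, chr3:95406451-95406480, plus strand: aaatgtgtgtccTTCCTCcctaacccctcc
Ctss, chr3:95433921-95433950, plus strand: gacacagggttgGAGGAAaactttgtcctg
Ctsd, 245 bases upstream, chr7:141941785-141941814, minus strand: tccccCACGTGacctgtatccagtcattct
Ctsd, 98 bases upstream, chr7:141941645-141941674, minus strand: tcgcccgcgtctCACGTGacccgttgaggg

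Levels of different genes were compared per length, as FPKM, fragment counts scaled to the length of the gene and the library total. Ctsd, the aspartic protease cathepsin D, was the highest of the 10 in every group, with a mean of 3956 ± 119 FPKM (SD, n = 2) in DMSO, 1525 ± 88.6 in 3C and 1272 ± 141 in 5C. Ctss, the cysteine protease cathepsin S, came next with 1052 ± 27.6 FPKM in DMSO, and Gpnmb followed with 789 ± 14.1. This order rests on the gene lengths behind the deposited FPKM. With CPM divided by the annotated exon length instead, Ctsd stayed first over all libraries, but 7 of the 10 ranks moved, with Cd68 second and Ctss at rank 5. In DMSO the order went on through Cd68, Tyrobp, Lgals3, Trem2, Cd9 and Ctsk to Lpl, from 521 to 18.5 FPKM, and no neighbours in this order overlapped between libraries. In 5C the order was different in its lower part. Cd68 at 126 and 129 FPKM overlapped Lgals3 at 121 and 134 FPKM, and Trem2 at 36.0 and 42.3 FPKM overlapped Lpl at 32.5 and 38.9 FPKM. Lpl was the lowest of the 10 in DMSO, and Ctsk, with a mean of 12.3 FPKM, was the lowest in 5C. Together the 10 genes took 1.43% and 1.62% of all counts in DMSO, 0.578% and 0.595% in 3C and 0.441% and 0.461% in 5C.

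The first question the design asks of these genes is how they differ between cells kept with a cocktail and cells kept with solvent. In 5C against DMSO, 7 of the 10 were called lower (Trem2, Tyrobp, Gpnmb, Cd68, Ctsd, Ctss and Ctsk), from 3.00-fold for Ctsd to 5.40-fold for Gpnmb, and 0 were called higher. The same 7 were called lower in 3C against DMSO, from 2.60-fold for Ctsd to 3.31-fold for Tyrobp and Gpnmb. Lgals3 was lower by less than the limit for a call in both, Cd9 did not pass the test, and Lpl was higher at the edge of the limit. A call needed a log2 fold change beyond 1 in either direction and, in edgeR's quasi-likelihood test, a p under 0.05 after Benjamini-Hochberg adjustment over all tested genes. Over all tested genes, 4.42% were called lower and 7.30% higher in 5C against DMSO, and 3.62% lower and 5.83% higher in 3C against DMSO. The median log2 fold change of the 10 was -1.84 in 5C and -1.47 in 3C, beside 0.0041 and 0.0088 over all tested genes. Libraries of the groups did not overlap for any of the 10, with 8 below DMSO and 2 above it in each comparison. By itself that says little, since 63.1% of all tested genes did not overlap in 5C against DMSO and 61.3% in 3C against DMSO. The DMSO libraries are shared by these comparisons.

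**Figure D1:**
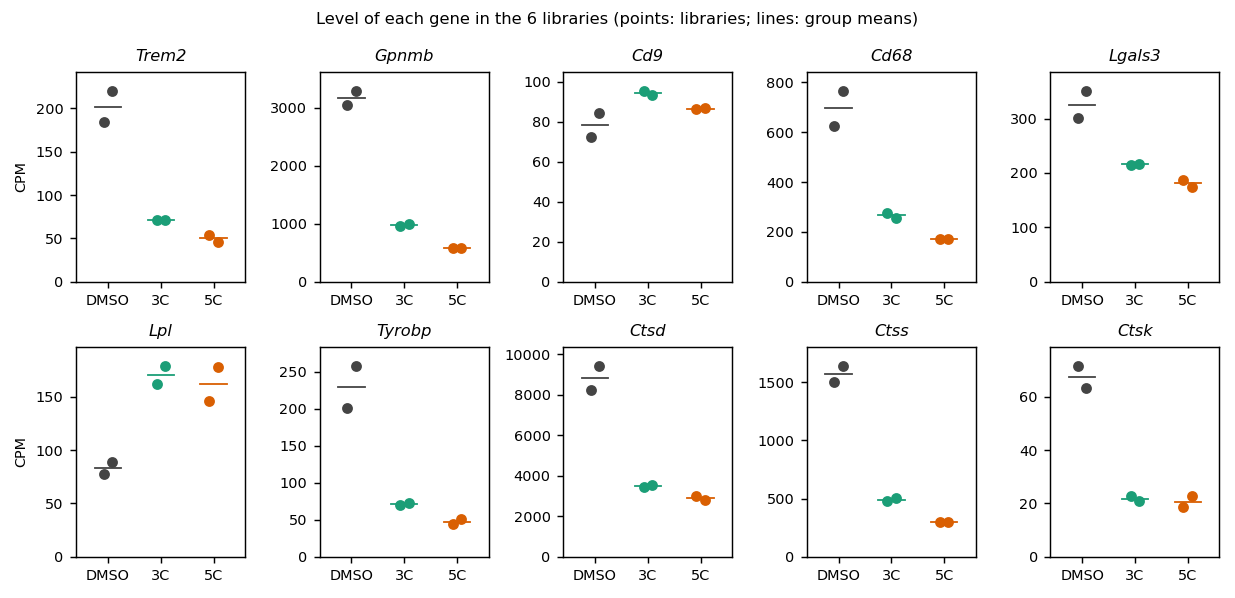
Level of each of the 10 genes in CPM (linear axis from 0, with its own range in each panel) in the 6 libraries; points are libraries and lines are group means. In 8 panels both DMSO libraries lie above all others, whereas in the panels of Lpl and Cd9 they lie below them.

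Trem2 and Tyrobp encode the receptor and its adaptor. Trem2 stood at 184 and 220.0 CPM in DMSO, 71.2 and 71.3 CPM in 3C and 54.5 and 45.9 CPM in 5C. Tyrobp stood at 202 and 258 CPM in DMSO, 69.4 and 72.7 CPM in 3C and 44.6 and 50.5 CPM in 5C. For both genes the DMSO libraries were the highest, the 3C libraries followed, and the 5C libraries were the lowest with no overlap. The log2 fold change of Trem2 was -1.99 ± 0.11 (SE) in 5C against DMSO (adjusted p = 2.51e-06) and -1.53 ± 0.11 (SE) in 3C against DMSO (adjusted p = 1.51e-05). That of Tyrobp was -2.26 ± 0.13 (SE) in 5C (adjusted p = 7.26e-06) and -1.73 ± 0.13 (SE) in 3C (adjusted p = 3.77e-05). The receptor and the adaptor thus fell together, to 3.98-fold and 4.77-fold lower levels in 5C.

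Gpnmb encodes a glycoprotein of lysosomes and the cell surface that is abundant in lipid-laden macrophages. Its level was 3051 and 3293 CPM in DMSO, 966 and 994 CPM in 3C and 581 and 581 CPM in 5C. Gpnmb had the largest fall of the 10 in 5C, with a log2 fold change of -2.43 ± 0.08 (SE) (adjusted p = 2.1e-07), and -1.73 ± 0.07 (SE) in 3C (adjusted p = 1.71e-06). Cd68 encodes macrosialin, a scavenger protein of late endosomes and lysosomes used as a stain for macrophages. It was measured at 626 and 766 CPM in DMSO, 278 and 257 CPM in 3C and 172 and 172 CPM in 5C. The log2 fold change of Cd68 was -2.00 ± 0.11 (SE) in 5C (adjusted p = 1.98e-06) and -1.41 ± 0.10 (SE) in 3C (adjusted p = 1.79e-05). The study placed Cd68 in an inflammatory gene list that it drew from these same libraries, so its direction is not independent of that choice.

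Ctsd, Ctss and Ctsk encode lysosomal proteases, of which cathepsin K is best known from bone-resorbing osteoclasts and from collagen breakdown. Ctsd was measured at 8244 and 9417 CPM in DMSO, 3422 and 3537 CPM in 3C and 3022 and 2803 CPM in 5C. Ctss was measured at 1503 and 1638 CPM in DMSO, 475 and 505 CPM in 3C and 300.3 and 298 CPM in 5C. Ctsk was measured at 71.6 and 63.3 CPM in DMSO, 22.6 and 20.8 CPM in 3C and 18.7 and 22.7 CPM in 5C. All 3 were highest in DMSO, but the cocktails overlapped for Ctsk, whose 5C libraries lay on either side of both 3C libraries. The log2 fold change in 5C against DMSO was -1.58 ± 0.09 (SE) for Ctsd (adjusted p = 2.56e-06). It was -2.37 ± 0.08 (SE) for Ctss (adjusted p = 2.8e-07) and -1.68 ± 0.12 (SE) for Ctsk (adjusted p = 1.14e-05). In 3C against DMSO the values were -1.38 ± 0.09 (SE), -1.71 ± 0.08 (SE) and -1.67 ± 0.12 (SE), with adjusted p = 8.57e-06, 1.97e-06 and 1.77e-05. Ctss and Ctsk, neighbours on chromosome 3, were 3.28-fold and 3.17-fold lower in 3C, and 5.18-fold and 3.21-fold lower in 5C, and the difference between the genes was not tested.

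Cd9 and Lpl did not fall in the cocktails as the other genes did, and Lgals3 fell by less. Cd9, a tetraspanin of the cell surface, stood at 72.2 and 84.4 CPM in DMSO, 95.4 and 93.4 CPM in 3C and 86.4 and 87.0 CPM in 5C, so that its lowest libraries were those of DMSO. Its log2 fold change was 0.16 ± 0.09 (SE) in 5C (adjusted p = 0.205) and 0.24 ± 0.09 (SE) in 3C (adjusted p = 0.0827), and neither passed the test. Lgals3, which encodes galectin-3, a lectin that binds galactosides and gathers on damaged lysosomes, stood at 300.2 and 351 CPM in DMSO, 216 and 217 CPM in 3C and 188 and 174 CPM in 5C. It was lower in both cocktails, by 1.78-fold in 5C (log2 fold change -0.83 ± 0.09 (SE), adjusted p = 0.000126) and 1.54-fold in 3C (-0.62 ± 0.09 (SE), adjusted p = 0.000869), which is within the limit for a call. Lpl, the lipoprotein lipase that frees fatty acids from circulating triglyceride, stood at 77.8 and 88.9 CPM in DMSO, 162 and 179 CPM in 3C and 146 and 178 CPM in 5C. It was the only member whose level was higher at an adjusted p under 0.05, with a log2 fold change of 0.98 ± 0.12 (SE) in 5C (adjusted p = 0.000325) and 1.00 ± 0.12 (SE) in 3C (adjusted p = 0.00036). Both values lie on the limit of 1, and Lpl was called higher in 2 of the 16 alternative settings that kept this limit for 5C and in 9 of 16 for 3C. Markers of other cell types are given beside these genes. The 11 stellate and fibroblast markers summed to 7757 to 9073 CPM in DMSO, 7076 to 7179 CPM in 3C and 11556 to 12573 CPM in 5C, with 4 called higher and 0 lower in 5C (2 without 5C replicate 2) and 2 higher and 1 lower in 3C. The 6 bile duct markers summed to 2919 to 3405 CPM, 3561 to 3750 CPM and 2406 to 2710 CPM, with 2 called higher and 0 lower in 5C and 4 higher and 0 lower in 3C. Most of this sum was Spp1, which scar-associated macrophages also express. Spp1 stood at 2748 and 3232 CPM in DMSO, 3182 and 3299 CPM in 3C and 2334 and 2058 CPM in 5C. In 5C against DMSO, Spp1 had a negative log2 fold change (-0.43), and the other 5 had positive ones. Of 7 tested endothelial markers, 5 were called higher and 1 lower in 5C (3 called without either DMSO library), and 3 higher and 1 lower in 3C (1 called without either DMSO library). Their sum was 328 to 338 CPM in DMSO, 89.2 to 122 CPM in 3C and 148 to 229 CPM in 5C, and most of it in DMSO was Lyve1, the marker called lower in both cocktails. Of 5 adipocyte markers, Cidec, which encodes a lipid droplet protein that fat-laden hepatocytes also make, was the one tested, and it was called higher in both cocktails, the direction of Lpl. Cidec stood at 5.70 and 6.01 CPM in DMSO, 15.9 and 15.7 CPM in 3C and 13.97 and 17.85 CPM in 5C, with log2 fold changes of 1.46 ± 0.16 (SE) in 5C (adjusted p = 0.000132) and 1.40 ± 0.16 (SE) in 3C (adjusted p = 0.000211). The defining adipocyte genes Adipoq, Plin1 and Lep were at 0 counts in all 6 libraries, and Retn did not exceed 0.119 CPM. The part of the other cell types in the levels of Cd9, Lgals3 and Lpl was not tested.

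**Figure D2:**
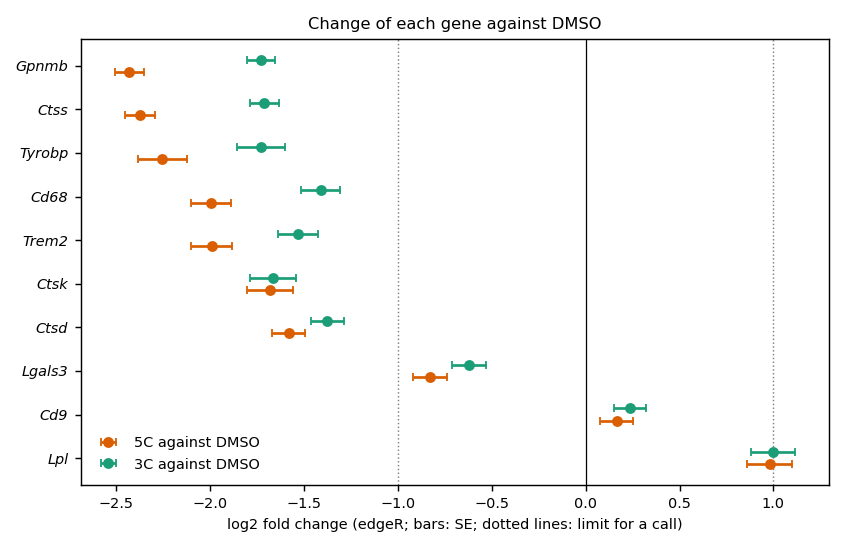
Log2 fold change of each gene in 5C against DMSO and in 3C against DMSO, from edgeR with 2 libraries per group. Bars are the SE derived from the F test, which uses a spread estimated over all 6 libraries. Dotted lines mark the limit of 1 for a call. The 7 genes from Gpnmb to Ctsd lie beyond -1 in both comparisons, Lgals3 lies between -1 and 0, Cd9 is within 0.24 of 0, and Lpl sits on the upper limit.

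The second question is whether the 2 compounds added in 5C, salidroside and forskolin, changed these genes further. In 5C against 3C, 0 of the 10 were called in either direction, beside 0.852% of all tested genes called lower and 2.16% called higher. Without a limit on the fold change, 5 of the 10 passed at an adjusted p under 0.05 and all 5 were lower, beside 5.33% of all tested genes. Gpnmb was 1.63-fold lower in 5C (log2 fold change -0.70 ± 0.07 (SE), adjusted p = 0.000616). Ctss was 1.58-fold lower (-0.66 ± 0.08 (SE), adjusted p = 0.001), and Cd68 was 1.50-fold lower (-0.58 ± 0.10 (SE), adjusted p = 0.00631). Tyrobp and Trem2 were lower by 1.44-fold and 1.37-fold, with adjusted p = 0.0306 and 0.0226. Gpnmb and Ctss passed in every fit that left out a library. Trem2 no longer passed without either 3C library or without 5C replicate 2 (adjusted p = 0.119 to 0.145), and Tyrobp failed without any single library of 3C or 5C (0.0702 to 0.172). Cd68 failed without 3C replicate 1 (0.0622). The other 5 genes did not pass the test. Their log2 fold changes were -0.21 ± 0.09 (SE) for Lgals3, -0.21 ± 0.09 (SE) for Ctsd, -0.07 ± 0.09 (SE) for Cd9, -0.02 ± 0.12 (SE) for Lpl and -0.02 ± 0.12 (SE) for Ctsk. The 5C libraries lay below the 3C libraries for 8 of the 10, while Lpl and Ctsk overlapped, beside 58.0% of all tested genes without overlap. At an unadjusted p under 0.05, 7 of the 10 passed, and the share of all tested genes at that level is not given here.

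Each of the 10 genes was then set against the macrophage transcripts themselves. In this fit the summed counts of the 14 pan-macrophage markers took the place of the library size, so a value of 0 means a gene moved in step with that sum. The spread of the sum itself is not part of the error. In these units the median of all tested genes was 2.14 in 5C against DMSO, 1.61 in 3C against DMSO and 0.52 in 5C against 3C. Of the markers, 12 of 14 were called lower in each cocktail against DMSO. The exceptions were Cd14, at 92.1 and 87.1 CPM in DMSO and 144 and 125 CPM in 5C, and Aif1, at 1.92 and 1.73 CPM and 2.27 and 2.71 CPM. The most abundant marker was Lyz2, the lysozyme gene, at 6024 and 6137 CPM in DMSO, with a log2 fold change of -2.44 ± 0.07 (SE) in 5C. A sum of counts gives such abundant markers the most weight. The smallest called fall was that of Mertk, a receptor for dying cells, at -1.19 ± 0.08 (SE).

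Per 1000 marker counts, Trem2 gave 14.1 and 15.8 counts in DMSO, 15.7 and 15.7 in 3C and 17.7 and 15.3 in 5C. Tyrobp gave 15.5 and 18.5 in DMSO, 15.3 and 16.0 in 3C and 14.5 and 16.9 in 5C. Cd68 gave 48.0 and 54.9 in DMSO, 61.2 and 56.7 in 3C and 56.1 and 57.6 in 5C. On this scale Trem2 and Tyrobp overlapped between DMSO and 5C, and none of the 3 genes passed the test in 5C against DMSO. Their relative log2 fold changes were 0.15 for Trem2 (adjusted p = 0.183), -0.11 for Tyrobp (adjusted p = 0.341) and 0.14 for Cd68 (adjusted p = 0.144). Gpnmb fell by more than the marker sum, with 234 and 236 counts per 1000 in DMSO and 189 and 194 in 5C, a relative log2 fold change of -0.30 (adjusted p = 0.0017). Ctss did so too, with 115 and 117 in DMSO and 97.6 and 99.5 in 5C, a relative value of -0.24 (adjusted p = 0.00888). This does not hold against every single marker. By library size, the log2 fold change in 5C was -2.44 for Lyz2, -2.43 for Gpnmb and -2.37 for Ctss. These were the 2 of the 10 genes that were relatively lower at an adjusted p under 0.05, beside 0.381% of all tested genes.

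The other 5 genes were relatively higher in 5C against DMSO, beside 84.7% of all tested genes, so a higher relative value alone does not set a gene apart. Ctsd gave 632 and 675 counts per 1000 marker counts in DMSO, 754 and 779 in 3C and 982 and 936 in 5C, a relative log2 fold change of 0.55 in 5C against DMSO (adjusted p = 2.75e-05). Ctsk gave 5.49 and 4.54 in DMSO, 4.99 and 4.58 in 3C and 6.08 and 7.59 in 5C, a relative value of 0.45 in 5C (adjusted p = 0.0154). Both cathepsins fell, but by less than the marker sum in 5C. Lgals3, Cd9 and Lpl stood higher by 1.31, 2.30 and 3.12, and Cd9 and Lpl lay above the median of all tested genes on this scale. In 3C against DMSO, 0 of the 10 were relatively lower, beside 0.361% of all tested genes, and 4 were relatively higher (Cd9, Lgals3, Lpl and Ctsd), beside 79.7%. In 5C against 3C, 1 was relatively lower, beside 1.02% of all tested genes, which was Gpnmb at -0.17 (adjusted p = 0.0435). There, 5 were relatively higher (Cd9, Lgals3, Lpl, Ctsd and Ctsk), beside 52.4%. Without Lyz2 in the sum, Tyrobp also became relatively lower in 5C against DMSO and Ctsk was no longer relatively higher, while in 3C against DMSO Gpnmb and Ctss became relatively lower and Ctsd was no longer relatively higher. Single libraries also decided some of these relative calls. In 5C against DMSO, Ctss was no longer relatively lower without 5C replicate 1, Ctsk was no longer relatively higher without 5C replicate 2 or DMSO replicate 2, and Cd68 became relatively higher without DMSO replicate 2. In 3C against DMSO, Cd68 did so without the same library, and Ctsd was not relatively higher without 3C replicate 2. In 5C against 3C, Gpnmb was not relatively lower without any single library of 3C or 5C. The 5 relatively higher genes became 3 without either 3C library, with Lgals3 and Lpl lost without 3C replicate 1 and Lgals3 and Ctsk lost without 3C replicate 2, and Ctsk was also lost without 5C replicate 2.

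**Figure D3:**
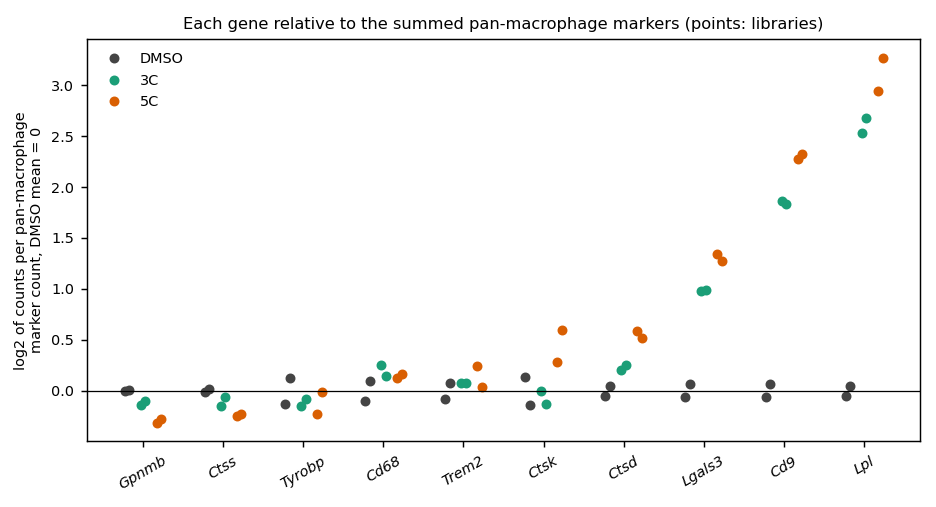
Counts of each gene per pan-macrophage marker count in each library, as log2 with the mean of the DMSO libraries at 0; points are libraries, coloured by group. Trem2, Tyrobp and Cd68 stay near 0 in both cocktails, Gpnmb and Ctss lie slightly below 0 in 5C, Ctsd lies above it, and Lgals3, Cd9 and Lpl lie far above it.

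The genes whose pattern over the 6 libraries was most like that of Trem2 and of Gpnmb were sought among the 10245 genes whose mean reached 10 CPM. Likeness was the root mean square difference of log2 CPM after centring. The 5 closest to Trem2 were C1qc at 0.054, Folr2 at 0.056, Cd53 at 0.057, C1qb at 0.070 and C1qa at 0.072. C1qa, C1qb and C1qc encode the chains of complement C1q, which macrophages make, and C1qc went from 1173 and 1388 CPM in DMSO to 328 and 282 CPM in 5C. The 5 closest to Gpnmb were Ctss at 0.029, Lyz2 at 0.040, Adgre1 at 0.057, Cybb at 0.059 and Aoah at 0.094. Adgre1 encodes the macrophage surface protein F4/80, and went from 411 and 431 CPM in DMSO to 83.4 and 82.8 CPM in 5C. All 6 points of such a comparison are libraries of 3 groups, so the values describe the shape over groups and carry no test.

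Markers of narrower myeloid types were read beside the 10 genes. Of 6 Kupffer cell markers, genes of the resident macrophages of the liver, 5 were called lower in each cocktail, and their sum went from 932 to 1037 CPM in DMSO to 238 to 249 CPM in 3C and 214 to 227 CPM in 5C. The exception was Clec4f, at 1.81 to 2.81 CPM in all 6 libraries. The 5 osteoclast markers summed to 275 to 303 CPM in DMSO, 91.1 to 93.7 CPM in 3C and 79.2 to 80.9 CPM in 5C, and nearly all of this was Acp5, an acid phosphatase that macrophages make too. Acp5 was the 1 of 3 tested osteoclast markers called lower in each cocktail, by -1.84 ± 0.08 (SE) in 5C and -1.68 ± 0.08 (SE) in 3C, the direction of Ctsk. The osteoclast genes Calcr and Dcstamp were at 0 counts in both DMSO libraries, where Ctsk was highest, and Oscar and Ocstamp did not exceed 0.601 CPM in any library. The 6 neutrophil markers summed to 15.7 to 18.3 CPM in DMSO, 5.00 to 6.99 CPM in 3C and 5.31 to 5.94 CPM in 5C, and 2 of 3 tested were called lower in each cocktail. These were Csf3r, the receptor for granulocyte colony-stimulating factor, at -2.04 ± 0.34 (SE) in 5C and -2.03 ± 0.34 (SE) in 3C, and the collagenase gene Mmp8 at -1.26 ± 0.24 (SE) and -1.20 ± 0.24 (SE). Mmp8 was not called in 5C without 5C replicate 1, where its log2 fold change came just inside the limit, or in 3C without 3C replicate 1 (adjusted p = 0.0611). Ly6g, S100a9 and Retnlg of the same list were at 0 counts in both DMSO libraries. Of 4 monocyte markers 3 were tested, and 1 was called lower in each cocktail. The monocyte gene Ccr2 did not exceed 0.182 CPM in any library, and Ly6c2 did not exceed 0.283 CPM. The T and B cell markers together did not exceed 0.601 CPM in any library, and the T cell genes Cd3e and Cd3g were at 0 counts in both DMSO libraries. The part of these cell types in the levels of the 10 genes was not tested.

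Of 18 other tested genes of scar-associated and lipid-associated macrophages, 6 were called lower and 1 higher in 5C against DMSO, with a median log2 fold change of -0.54, and 6 were called lower and 1 higher in 3C. The most abundant, Apoe, which encodes a lipid carrier also made by hepatocytes, stood at 7782 and 7666 CPM in DMSO and 6558 and 5904 CPM in 5C, with a log2 fold change of -0.29 ± 0.07 (SE). Mmp12, the macrophage elastase, had the largest fall, from 6.39 and 7.75 CPM to 1.23 and 1.04 CPM in 5C (log2 fold change -2.62 ± 0.38 (SE), adjusted p = 0.000755). Apoc2, a hepatocyte apolipoprotein that activates lipoprotein lipase, was the gene that rose, from 36.2 and 29.8 CPM to 236 and 287 CPM (3.01 ± 0.17 (SE), adjusted p = 2.15e-05).

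A list for TREM2 and DAP12 signaling also held other receptors, among them Trem1, Treml2, Sirpb1a and Clec5a. Of its 15 tested genes, 11 were called lower and 0 higher in 5C against DMSO, with a median of -1.61. In 3C, 8 were called lower and 0 higher. Clec5a and Treml2 were among those called lower in 5C, so the count is not one of TREM2 signaling alone. Syk, the kinase that docks on DAP12, is named here after its values were seen, and went from 128 and 121 CPM in DMSO to 46.6 and 47.4 CPM in 3C and 33.9 and 28.8 CPM in 5C (-1.97 ± 0.09 (SE) in 5C, adjusted p = 7.82e-07). Grn, the most abundant of the list and a lysosomal glycoprotein precursor, went from 2607 and 2861 CPM in DMSO to 1068 and 1014 CPM in 5C (-1.38 ± 0.08 (SE), adjusted p = 2.7e-06). Pik3cd, a kinase of leukocytes, had the smallest called fall at -1.23 ± 0.10 (SE). Treml2 had the lowest fitted value, but from 0.625 and 1.70 CPM in DMSO to 0.188 and 0 CPM in 5C, and its adjusted p was 0.0495 and rose above 0.05 in 8 alternatives. The Fc receptors and the adaptor gene Fcer1g were called lower in 5 of 5 cases in both cocktails. Their log2 fold changes in 5C ran from -2.95 for Fcgr1 to -1.68 for Fcgr3, the most abundant, which went from 211 and 227 CPM to 64.3 and 70.1 CPM.

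Of 11 other cathepsins and legumain, 1 was called lower and 1 higher in 5C against DMSO, and the median log2 fold change was -0.58. Without DMSO replicate 1, 4 of them were called. The one called lower was Ctsb, cathepsin B, which went from 7220.1 and 8117 CPM in DMSO to 3072 and 3005 CPM in 3C and 2378 and 2325 CPM in 5C (-1.69 ± 0.08 (SE) in 5C, adjusted p = 1.24e-06). The one called higher was Ctse at 1.74 and 2.26 CPM in DMSO and 4.78 and 4.84 CPM in 5C (1.28 ± 0.27 (SE), adjusted p = 0.00617). Ctsd made up 47.0% and 47.1% of the summed FPKM of all listed cathepsins and legumain in DMSO. Its share was 40.5% and 41.6% in 3C and 36.7% and 40.1% in 5C. Of 3 tested cathepsin inhibitors, 0 were called, and the most abundant, Cst3 (cystatin C), had a log2 fold change of -0.63 ± 0.10 (SE) in 5C (adjusted p = 0.00105).

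Of 30 other lysosomal hydrolases and cofactors, 7 were called lower and 0 higher in 5C against DMSO, and 23 had an adjusted p under 0.05 with a lower value at any fold. For that last count the share of all tested genes is not given here. The median was -0.69 in 5C and -0.53 in 3C. Psap, which encodes the precursor of the saposins that help degrade sphingolipids, was the most abundant and went from 8366 and 9239 CPM to 2631 and 2761 CPM in 5C (-1.69 ± 0.08 (SE), adjusted p = 1.32e-06). Acp5, the tartrate-resistant acid phosphatase of macrophages and osteoclasts, had the largest fall at -1.84 ± 0.08 (SE).

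Of 24 genes of the lysosomal membrane and its proton pump, 4 were called lower and 0 higher in 5C, with a median of -0.51. Lamp1, the most abundant membrane protein of the list, went from 2215 and 2480.2 CPM to 1087 and 1105 CPM (-1.08 ± 0.08 (SE), adjusted p = 1.31e-05), and was not called without DMSO replicate 2 (-0.98). The largest fall was that of Atp6v0d2, a pump subunit of macrophages and osteoclasts, from 37.5 and 48.3 CPM to 8.38 and 9.53 CPM (-2.24 ± 0.25 (SE), adjusted p = 0.000421). Its widely expressed paralog Atp6v0d1, named after its values were seen, went from 168 and 185 CPM to 133 and 124 CPM, a log2 fold change of -0.44 ± 0.08 (SE). Another such pair, also chosen after its values were seen, was Laptm5 of blood cells at -1.83 ± 0.07 (SE) and the widely expressed Laptm4a at 0.10 ± 0.07 (SE). Pairs picked from their values do not show how such genes differ in general, and the differences within the pairs were not tested. The MiT/TFE factors Tfeb, Tfe3, Mitf and Tfec switch on lysosomal genes, and folliculin, its partners and the Rag GTPases regulate them. Of 9 such factors and regulators, 1 was called lower and 0 higher in 5C. This was Tfec, the family member of myeloid cells, at -1.98 ± 0.19 (SE) (adjusted p = 6.09e-05), while Rragc, a Rag GTPase and the most abundant, had a value of -0.43 ± 0.08 (SE). Tfeb, named after its values were seen, was not called, at 0.58 ± 0.13 (SE) (adjusted p = 0.0103).

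The relatives of Cd9, Lgals3 and Lpl were read last. Of 15 other tetraspanins, 4 were called lower and 1 higher in 5C against DMSO, with a median of 0.11. Cd37, a tetraspanin of leukocytes, had the largest fall at -2.08 ± 0.12 (SE), Tspan7 was the one called higher at 1.23 ± 0.11 (SE), and the most abundant, Cd63, had a value of -0.25 ± 0.08 (SE) (adjusted p = 0.0569). Of 6 tested galectins other than Lgals3, 0 were called lower and 2 higher in 5C, and these were Lgals2 at 1.78 ± 0.35 (SE) and Lgals4 at 1.27 ± 0.24 (SE), both under 5 CPM in every library. Lgals1, the most abundant galectin, stood at 384 and 484 CPM in DMSO and 429.9 and 365 CPM in 5C, with overlap. The gene of the galectin-3-binding protein, Lgals3bp, which is not a galectin, was not called (-0.49 ± 0.15 (SE), adjusted p = 0.0472). Of 17 tested lipases and regulators of lipoprotein lipase, 7 were called higher and 0 lower in 5C, and 6 higher and 1 lower in 3C. The largest rise was that of Apoa5, a hepatocyte apolipoprotein that promotes the action of the lipase, from 0.849 and 1.21 CPM in DMSO to 10.1 and 9.63 CPM in 3C and 62.8 and 75.5 CPM in 5C (6.09 ± 0.19 (SE) in 5C, adjusted p = 2.1e-07). Angptl8, an inhibitor of the lipase, had the smallest called rise at 1.04 ± 0.18 (SE), and was not called without DMSO replicate 1 (0.96). Lrp1, the most abundant of the list and a receptor for lipoprotein remnants, overlapped between the groups at 1872 and 1303 CPM in DMSO and 1174 and 1564 CPM in 5C.

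**Figure D4:**
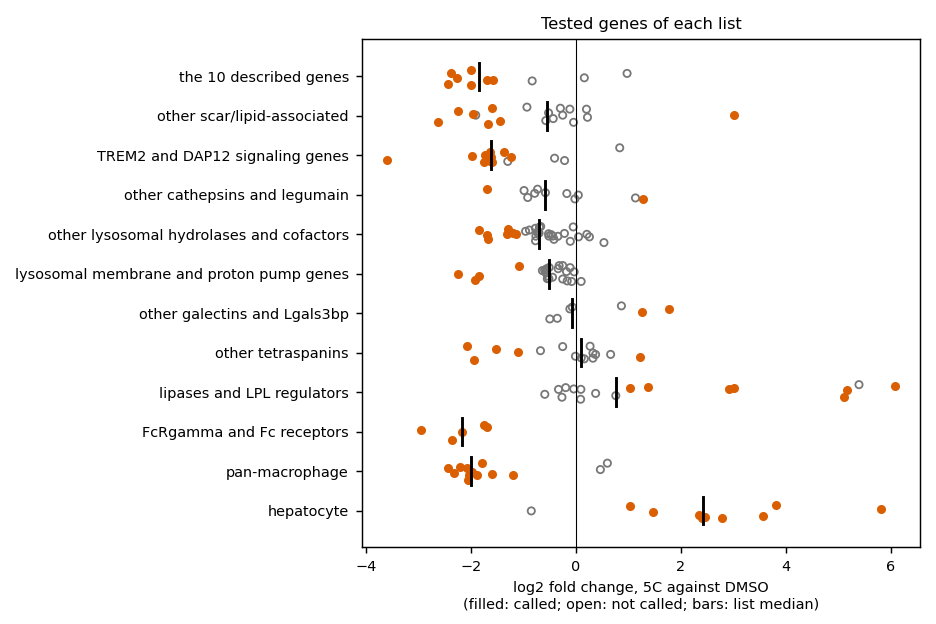
Log2 fold change in 5C against DMSO of every tested gene of 12 lists (points, filled where called, open where not), with a bar at the median of each list. The lists of the 10 described genes, TREM2 and DAP12 signaling, Fc receptors and pan-macrophage markers lie mostly left of -1, the hydrolase and membrane lists lie nearer to 0, and the hepatocyte markers and regulators of lipoprotein lipase reach far to the right.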

How the data were processed

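RNA-seq was available from 6 libraries in 3 groups, assigned from the labels. The count table deposited by the authors held whole-number counts per gene that were not normalized. The FPKM table deposited by the authors was scaled for gene length and library total. The submitters' processing notes name Subread, featureCounts, DESeq2 and GRCm39, without versions. The units that stand for a fragment could not be settled.

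Counts were tested with edgeR 4.0.16 in R 4.3.3 (TMM, filterByExpr, robust quasi-likelihood F test, 3 residual degrees of freedom). Each SE was derived from the F value of this test and is not the observed spread of 2 libraries. The biological coefficient of variation was 18.4%. P-values were adjusted over 19135 genes by Benjamini-Hochberg. CPM are counts scaled to the library total. The relative fit used summed pan-macrophage marker counts as library size. Totals were nearly equal, and precision rests on 2 libraries per group.

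The members and lists were chosen with earlier results of these data known. Besides the members, the rule named the most abundant gene of each list, the called genes with the largest and smallest change in 5C, and the 5 patterns nearest to Trem2 and to Gpnmb. For cell types, values are given where a result turns on them, and some named genes are not reported here. Alternatives used DESeq2 1.42.0, limma 3.58.1 on log2(FPKM + 1) and log2(FPKM + 0.1), other filters and normalizations, and left-out libraries. The fit was tested on simulated data. Figures used matplotlib 3.10.9.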

Additional observations from a re-analysis of the deposited data

How the results depend on the processing

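The 7 genes called lower against DMSO were called lower in all 17 alternative settings of each comparison. Without a limit on the fold change, 9 of the 10 genes passed in each cocktail against DMSO, 8 lower and 1 higher, and 5 passed in 5C against 3C in place of 0. The share of all tested genes that passed without this limit is not given for the comparisons with DMSO. Those counts alone therefore do not set the genes apart. Among settings that kept the limit, Lpl was the gene whose call changed. Its log2 fold change was 0.81 to 1.13 in 5C and 0.89 to 1.12 in 3C over left-out libraries. In 5C against 3C, values without 1 library were -0.19 to 0.12 for Lpl and -0.19 to 0.13 for Ctsk, so their signs are not fixed. For Lgals1 and Lrp1 in 5C against DMSO they were -0.28 to 0.080 and -0.43 to 0.080.

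The signs of several small relative values were not fixed. Without Lyz2 in the marker sum, the relative value in 5C against DMSO was -0.065 for both Trem2 and Cd68, that of Trem2 in 3C against DMSO was -0.059, and in 5C against 3C those of Trem2 and Tyrobp were -0.00618 and -0.0734. Without 1 library, Tyrobp ran from -0.24 to 0.020 in 5C against DMSO, from -0.24 to 0.018 in 3C against DMSO and from -0.11 to 0.11 in 5C against 3C. Trem2 ran from -0.00608 to 0.16 in 3C against DMSO and from -0.036 to 0.17 in 5C against 3C. Cd68 ran from -0.11 to 0.0037 in 5C against 3C, and Ctsk from -0.20 to 0.077 in 3C against DMSO.

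Replicate numbers were shared by the groups, but same-numbered libraries did not deviate together (correlations of -0.031, 0.00068 and 0.016 over genes). With a replicate block, 7, 8 and 0 of the 10 genes were called for 5C and for 3C against solvent and for 5C against 3C, the eighth being Lpl.

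Among other lists in 5C against DMSO, dropping the limit on the fold change raised the calls. Calls rose to 13 of 18 other scar-associated genes, 7 of 11 cathepsins and legumain and 25 of 30 hydrolases. They also rose to 17 of 24 membrane and pump genes and 7 of 9 MiT/TFE factors and regulators. For galectin-list genes (6 galectins and Lgals3bp) the count was 4 of 7, and for tetraspanins 11 of 15. These counts, too, are given without the share of all tested genes that passed. With limma on log2(FPKM + 1), 1 cathepsin and 1 galectin were called. Scaling by annotated exon length in place of the deposited FPKM kept Ctsd first and moved 7 of the 10 level ranks, Cd68 to 2 and Ctss to 5. The limits are 2 libraries per group, 3 residual degrees of freedom and bulk RNA of mixed cells.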
